A study of Homo sapiens with 2 samples.

Results

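Keratin-associated protein genes (KRTAP genes) encode the small matrix proteins that surround keratin filaments in the hair shaft. They were examined here in UACC62 cells, an established human melanoma line, on 1 array of cells given an siRNA against FOSL1 and 1 array of cells given a non-targeting control siRNA. Both cultures were harvested 3 days after transfection. FOSL1 encodes FRA1, a FOS-family subunit of the transcription factor AP-1, and the series concerns its part in the reprogramming of melanocytes. Members were all genes whose symbol in the probe-to-gene table starts with KRTAP, which gave 85 of the 14884 named genes. Of these, 84 carry a numbered protein-gene symbol from 25 subfamilies, and 1, KRTAP5-AS1, is annotated as a long non-coding RNA. As the labels do not describe the siRNA sequences, depletion of FOSL1 and off-target effects cannot be told apart. With 1 array per condition no difference had a replicate check, no test was run, and every value describes these 2 arrays.

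Keratin-associated proteins are rich either in cysteine or in glycine and tyrosine. The cysteine-rich proteins are divided into high-sulfur and ultra-high-sulfur subfamilies, and they are cross-linked through disulfide bonds to hair keratins in the cortex and cuticle of the growing hair. Their genes are short, have a single exon and lie side by side in clusters, so that close copies are common. Expression is known mainly from the hair follicle, where HOXC13 is an established regulator of hair keratin genes and of some KRTAP genes.

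The deposited numbers, 1 for each probe set on each array, were read as log2 intensities. Each difference subtracts the control siRNA array from the FOSL1 siRNA array on that scale, so a negative difference is a lower value with FOSL1 siRNA. The probe set with the highest mean of both arrays stood for a gene. Members with a mean at or above 8.021, the median of all named genes, are called bright, and the others dim. By this split 13 members (15.3%) were bright and 72 dim, and 58 of the 85 (68.2%) lay below the 25th percentile of the named genes, a log2 value of 6.73. FOSL1 itself, the targeted gene, had a log2 value of 10.38 with FOSL1 siRNA and 11.90 with control siRNA. Brightness depends on the probes as well as on the transcript, so it does not rank transcripts of different genes. Probes of close copies may bind each other's RNA, and this was not tested. None of the members shared identical values with another probe set (0 of 85).

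The stretch just before the start site is shown for 5 members, chosen because the text turns on them. KRTAP10-2, a bright member at -0.45, was not among them. The stretches come from 3 other bright members at -0.41 or lower, the brightest member, and the dim TGANTCA member of lowest difference. Each is the 250 bases before the annotated start, 5′ to 3′ on the strand of the gene, from RefSeq on GRCh38.p14. Capitals mark TATAAA, the core of a TATA box, or TGANTCA, a loose form of the AP-1 motif with any base (N) in the middle. The match in KRTAP4-5 reads TGAATCA, so not every match is the stricter AP-1 consensus. Both motifs were searched on both strands, and the 2 motifs do not overlap in these stretches.
KRTAP10-9 (chr21:44626843-44627092, plus strand): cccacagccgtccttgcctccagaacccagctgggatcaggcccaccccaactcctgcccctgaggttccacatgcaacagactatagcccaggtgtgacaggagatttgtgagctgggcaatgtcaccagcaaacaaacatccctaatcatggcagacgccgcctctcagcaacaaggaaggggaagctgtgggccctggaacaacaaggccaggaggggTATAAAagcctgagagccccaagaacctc
KRTAP10-12 (chr21:44696922-44697171, plus strand): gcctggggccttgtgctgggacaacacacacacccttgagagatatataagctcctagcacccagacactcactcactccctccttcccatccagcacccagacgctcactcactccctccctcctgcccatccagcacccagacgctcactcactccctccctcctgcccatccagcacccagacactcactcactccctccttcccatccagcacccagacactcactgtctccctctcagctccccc
KRTAP9-2 (chr17:41226398-41226647, plus strand): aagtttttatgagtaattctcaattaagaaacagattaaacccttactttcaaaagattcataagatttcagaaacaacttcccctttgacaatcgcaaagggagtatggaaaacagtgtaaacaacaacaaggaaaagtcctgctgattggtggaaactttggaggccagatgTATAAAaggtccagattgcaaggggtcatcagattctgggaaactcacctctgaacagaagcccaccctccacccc
KRTAP2-3 (chr17:41060115-41060364, minus strand): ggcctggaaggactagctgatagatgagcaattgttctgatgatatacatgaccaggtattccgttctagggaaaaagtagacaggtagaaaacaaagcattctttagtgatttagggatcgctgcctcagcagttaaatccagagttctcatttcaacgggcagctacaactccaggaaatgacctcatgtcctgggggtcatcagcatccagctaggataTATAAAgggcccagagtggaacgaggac
KRTAP4-5 (chr17:41149826-41150075, minus strand): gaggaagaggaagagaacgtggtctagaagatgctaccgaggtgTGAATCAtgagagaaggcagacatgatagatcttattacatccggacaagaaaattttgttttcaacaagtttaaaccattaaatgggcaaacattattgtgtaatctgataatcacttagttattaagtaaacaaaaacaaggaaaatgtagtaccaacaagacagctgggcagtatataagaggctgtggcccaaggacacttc

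In these stretches TATAAA began 29 bases before the start of KRTAP10-9, 28 bases before that of KRTAP2-3 and 76 bases before that of KRTAP9-2. KRTAP10-12 held neither motif, and KRTAP4-5 held TGANTCA 206 bases before its start. Promoter windows of 250 bases before to 50 bases after the start were available for 71 members. They leave out 9 of the 11 KRTAP5 genes, and the bright KRTAP5-1, KRTAP5-7 and KRTAP9-8 are among those without one. TATAAA was present in 54 of the 71 (76.1%), against 11.95% of the 27305 promoters in the table. TGANTCA was present in 6 of the 71 (8.45%), against 7.76% of all promoters. With 7.76% of all promoters holding TGANTCA, 10 windows of bright members are too few to set bright and dim members apart. None of the 10 held it, and 6 of the 61 dim members with a window (9.84%) did: KRTAP3-2, KRTAP4-5, KRTAP4-6, KRTAP4-12, KRTAP19-5 and KRTAP27-1. Their differences lay on both sides of 0, with -0.66 for KRTAP4-5, -0.29 for KRTAP4-6, -0.10 for KRTAP3-2, 0.01 for KRTAP27-1, 0.14 for KRTAP4-12 and 0.20 for KRTAP19-5. The median GC content of the windows was 56.7% in bright members, 41.3% in dim members and 58.3% in all promoters. The 10 KRTAP10 windows, bright and dim together, also had a median of 56.7%. Among bright members outside KRTAP10, KRTAP1-5, KRTAP9-2, KRTAP2-3 and KRTAP17-1 had 36.0%, 43.3%, 47.3% and 49.7%, and KRTAP5-AS1 had 78.7%. Brightness and subfamily were not separated in this contrast. A match to these letters does not show binding, and a missing match says only that the letters are not in the window.

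All 13 bright members had lower values with FOSL1 siRNA than with control siRNA. Their median difference was -0.30, a level 1.23-fold lower, with quartiles of -0.41 and -0.13 and a range from -0.73 to -0.10. Among all 7442 bright named genes, 50.1% were below 0 and the median was -0.00. The differences were small, and 1 of the 13 reached 1.5-fold lower while 0 reached 1.5-fold higher. The background for these counts is 0.766% of bright named genes at least 1.5-fold lower and 1.13% at least 1.5-fold higher. The count of 13 rests on 1 pair of arrays, and probes of related members may share signal, so the members are not 13 independent measurements.

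**Figure D1:**
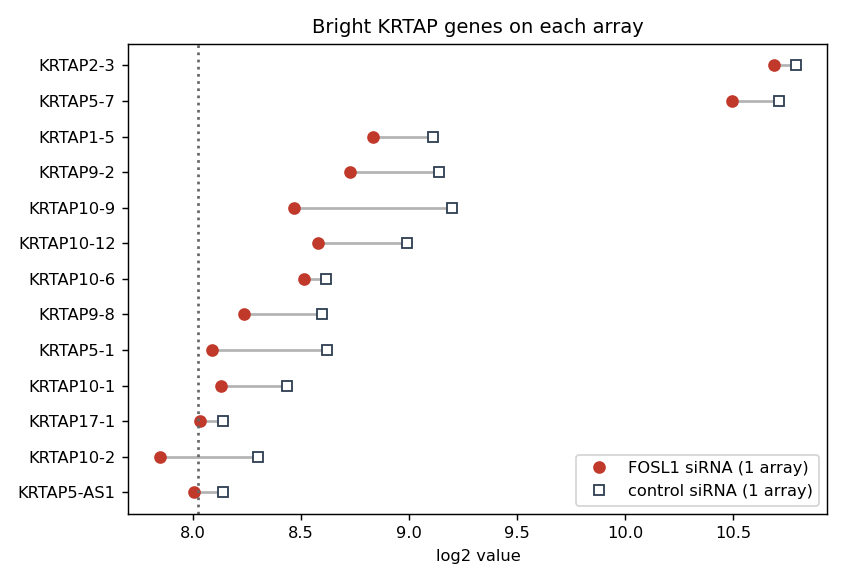
Log2 values (horizontal axis) of the 13 bright KRTAP genes, 1 row per gene, with FOSL1 siRNA (filled circles, 1 array) and control siRNA (open squares, 1 array); the dotted line marks the split at 8.021. In every row the circle lies left of the square, with the widest gap for KRTAP10-9 at -0.73 and the narrowest for KRTAP10-6 at -0.10.

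The KRTAP10 subfamily, high-sulfur proteins of the hair cuticle, supplied 5 of the bright members. KRTAP10-9 (probe set 16923659) stood at 8.47 with FOSL1 siRNA and at 9.20 with control siRNA. The difference of -0.73, 1.66-fold lower, ranked 17 from the lowest among the 7442 bright genes, and it was the bright member that passed 1.5-fold. KRTAP10-2 had 7.85 with FOSL1 siRNA and 8.30 with control siRNA, a difference of -0.45. KRTAP10-12 had 8.58 with FOSL1 siRNA and 8.99 with control siRNA, a difference of -0.41. These 2 genes were thus 1.37-fold and 1.33-fold lower. KRTAP10-1 was at 8.13 with FOSL1 siRNA and 8.43 with control siRNA, and KRTAP10-6 at 8.52 and 8.62 in the same order. KRTAP10-6 had the smallest difference of the bright members, -0.10, and it was -0.01 with the span trend removed.

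The dim KRTAP10 genes also lay mostly below 0. Of the 11 members of the subfamily 10 were below 0 (90.9%, beside 54.5% of all named genes), with a median of -0.30. KRTAP10-8 was the exception at 0.11. KRTAP10-4, KRTAP10-11 and KRTAP10-7 had differences of -0.41, -0.37 and -0.30, and KRTAP10-5 and KRTAP10-10 had -0.27 and -0.24. The 4 dim KRTAP12 genes of the same chromosome 21 cluster were all below 0 (beside 58.9% of dim named genes), with a median of -0.19. KRTAP12-4 was the lowest of them, at 7.54 with FOSL1 siRNA and 7.99 with control siRNA, a difference of -0.45. All 15 KRTAP10 and KRTAP12 members lie within the span of TSPEAR in the GRCh38.p14 annotation. TSPEAR, a gene linked to ectodermal and tooth development, was itself dim and had a value of 7.35 with FOSL1 siRNA and 7.26 with control siRNA. Its difference of 0.09 was on the other side of 0 from 14 of the 15 genes inside it.

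KRTAP5 genes encode ultra-high-sulfur proteins. KRTAP5-7 was at 10.49 with FOSL1 siRNA and 10.71 with control siRNA, a difference of -0.22. KRTAP5-1 was at 8.09 with FOSL1 siRNA and 8.62 with control siRNA, a difference of -0.54 or 1.45-fold lower. Both bright KRTAP5 protein genes were therefore lower, the less bright of them by more. Among dim members, KRTAP5-5 had the lowest difference of the subfamily, with 6.58 under FOSL1 siRNA and 7.25 under control siRNA, which is 1.59-fold lower. KRTAP5-2 and KRTAP5-8 had differences of -0.53 and -0.50, and KRTAP5-6, KRTAP5-9 and KRTAP5-11 had -0.39, -0.35 and -0.23. On the other side lay KRTAP5-10 at 0.52, KRTAP5-3 at 0.14 and KRTAP5-4 at 0.01, all with means below 6. Over all 11 members the median was -0.35 and 8 were below 0 (72.7%, beside 54.5% of all named genes).

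KRTAP5-AS1, the long non-coding RNA that the symbol rule also took in, spans KRTAP5-1 and KRTAP5-2. It was at 8.005 with FOSL1 siRNA and 8.14 with control siRNA, a difference of -0.13. Both genes inside it had larger differences of -0.54 and -0.53. Strand separation by the probes is not described in the labels, and overlap between their signals was not tested. Without KRTAP5-AS1 the bright members were 12 of 12 below 0 (beside 50.1% of bright named genes), with a median of -0.33.

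The cluster on chromosome 17 held the other bright members. KRTAP9-2, another ultra-high-sulfur gene, was at 8.73 with FOSL1 siRNA and 9.14 with control siRNA, a difference of -0.41. KRTAP9-8 was at 8.24 with FOSL1 siRNA and 8.60 with control siRNA, a difference of -0.36. The remaining KRTAP9 genes were dim and had smaller differences, from -0.18 for KRTAP9-4 to 0.08 for KRTAP9-9, the dimmest member of all. KRTAP1-5, a high-sulfur gene, was at 8.83 with FOSL1 siRNA and 9.11 with control siRNA, a difference of -0.28. KRTAP17-1 was at 8.03 with FOSL1 siRNA and 8.14 with control siRNA, a difference of -0.11, which was -0.01 once a trend on gene span was removed. KRTAP17-1 and KRTAP5-AS1 are 2 of the 3 members just above the split, with means of 8.09 and 8.07, and KRTAP10-2 is the other at 8.07. Just below it were KRTAP12-4 at 7.76, KRTAP5-6 at 7.70 and KRTAP10-10 at 7.66, all with negative differences.

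KRTAP2-3, a high-sulfur gene, was the brightest member, with 10.69 under FOSL1 siRNA and 10.79 under control siRNA. Its mean was above that of 90.6% of the named genes, and KRTAP5-7 was above 89.2%. The difference of KRTAP2-3 was -0.10, and it was -0.01 once a trend on gene span was removed, which leaves it, like KRTAP10-6 and KRTAP17-1, without a clear direction. Its close relatives KRTAP2-4, KRTAP2-2 and KRTAP2-1 were dim, with differences of -0.43, -0.38 and -0.20. KRTAP2-4 had values of 4.60 with FOSL1 siRNA and 5.03 with control siRNA.

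Over all 85 members 61 were below 0 (background 54.5% of all named genes), 4 were at least 1.5-fold lower (background 1.43%) and 1 was at least 1.5-fold higher (background 1.91%). Among the 72 dim members 48 were below 0, with a median of -0.13. The background is 58.9% below 0 among the 7442 dim named genes, whose median was -0.06. At 1.5-fold 3 dim members were lower (background 2.1%) and 1 was higher (background 2.69%). The 3 lower were KRTAP5-5, KRTAP21-1 and KRTAP4-5, and the 1 higher was KRTAP4-7. KRTAP4-5 was at 3.54 with FOSL1 siRNA and 4.19 with control siRNA, a difference of -0.66. KRTAP4-7 was at 6.26 with FOSL1 siRNA and 4.92 with control siRNA, a difference of 1.34 or 2.53-fold higher. At such low values this single difference has no second probe set to set against it. KRTAP21-1 did have a second probe set, and the 2 went opposite ways. The brighter one was at 6.68 with FOSL1 siRNA and 7.34 with control siRNA, a difference of -0.66, while the dimmer one was at 5.25 and 5.17 in the same order, a difference of 0.08.

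**Figure D2:**
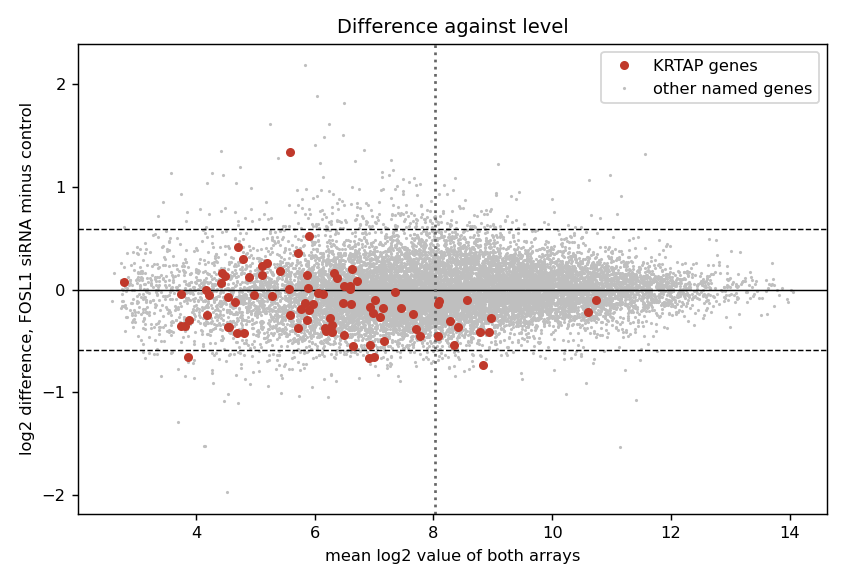
Log2 difference, FOSL1 siRNA minus control siRNA (vertical axis), against the mean log2 value of both arrays (horizontal axis) for 85 KRTAP genes (large points) and all other named genes (small points); dashed lines mark 1.5-fold and the dotted line the split at 8.021. KRTAP points right of a mean of 7 all lie below 0, while those to its left scatter on both sides.

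The negative differences gathered in the brighter members. Above a mean log2 value of 7, a level chosen after the values were seen, 23 of 23 members were below 0 with a median of -0.28. Other named genes above that level were below 0 in 52.3% of cases, with a median of -0.01. They were not matched for gene length. Other protein-coding genes of at most 1643 bases were below 0 in 79.3% of cases when bright and 64.8% when dim. KRTAP21-1 is among the 23 through its brighter probe set, with a mean of 7.01. Its other probe set had a mean of 5.21 and a difference of 0.08. Below a mean of 7, 38 of 62 members (61.3%) were below 0, against 59.5% of the other genes, and the medians were -0.07 and -0.06. The dimmer members thus lay close to the background, and whether this reflects signal too low to show a difference was not tested.

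By protein type, high glycine-tyrosine members were all dim, and their median was close to 0. The types were assigned from general knowledge of the subfamilies. The 18 members of this type had a median of -0.04 with 11 below 0 (61.1%), near the 58.9% of dim named genes. KRTAP19 genes illustrate the scatter, with 3 of 6 below 0, from -0.42 for KRTAP19-4 to 0.30 for KRTAP19-6. KRTAP20 genes had a median of 0.13 with 1 of 3 below 0, and KRTAP6-1 and KRTAP6-2 were at 0.26 and -0.18. The high-sulfur type had 37 members, a median of -0.24 and 29 below 0 (78.4%), beside 54.5% of all named genes. The ultra-high-sulfur type had 29 members, a median of -0.19 and 20 below 0 (69.0%), with a wide spread inside KRTAP4, where 6 of 11 were below 0. KRTAP4-2 and KRTAP4-11 had differences of 0.42 and 0.36, and KRTAP4-9 had -0.41. The types also differ in level, since all bright members with a type belonged to the sulfur-rich ones, and level and type were not separated.

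**Figure D3:**
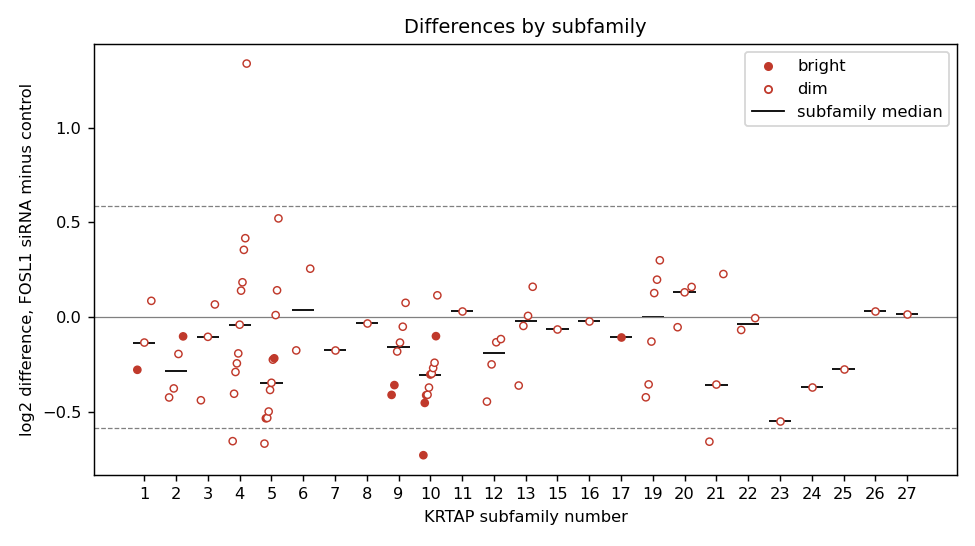
Log2 difference, FOSL1 siRNA minus control siRNA (vertical axis), for the 84 protein-gene members by subfamily number (horizontal axis); filled points are bright, open points dim, short lines subfamily medians and dashed lines 1.5-fold. The KRTAP5 and KRTAP10 medians lie at -0.35 and -0.30, and the KRTAP4 genes spread from -0.66 to 1.34.

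Members fell into 5 clusters when neighbours over 1 Mb apart were separated. The KRTAP10 and KRTAP12 cluster of chromosome 21 had a median of -0.30 with 14 of 15 below 0, beside 54.5% of all named genes. The other cluster of chromosome 21, with 29 dim members, had a median of -0.05 with 17 below 0 (58.6%), near the 58.9% of dim named genes. In that cluster KRTAP23-1 was among the lowest, at 6.37 with FOSL1 siRNA and 6.92 with control siRNA. The cluster of chromosome 17, also with 29 members, had a median of -0.14 with 21 below 0 (72.4%), beside 54.5% of all named genes. KRTAP3-1 there was at -0.44. The 2 clusters of chromosome 11 had medians of -0.39 over 7 members and -0.23 over 5. Genes of other families within 200 kb of a member had 27 of 42 below 0 (64.3%) and a median of -0.08. The background is 54.5% of all named genes and 58.9% of dim ones. These neighbours take in hair keratins, among them KRT33B and KRT36, so they overlap with the hair keratin list below. Of the 42 neighbours, 12 were bright, with 8 below 0 (66.7%, beside 50.1% of bright named genes) and a median of -0.09. BRSK2, a brain-enriched kinase, was the lowest of the bright neighbours at -0.51, and ACTE1P, an actin pseudogene, the highest at 0.24.

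Gene length moved with the differences among bright genes. Among dim genes the shift was smaller. Other named dim genes of at most 1643 bases were below 0 in 59.3% of cases, with a median of -0.07. All dim genes outside the family, short ones included, had 58.9% and -0.06. The 165 short dim genes that code for proteins were below 0 in 64.8% of cases, with a median of -0.08. Protein-gene members span 208 to 1643 bases, whereas the median span of bright named genes was 27446 bases. Bright named genes of up to 1500 bases had a median difference of -0.21 with 78.9% below 0, and those over 100000 bases had 0.09 with 31.4% below 0. The nearest like-for-like set was the 67 other bright protein-coding genes of at most 1643 bases and of levels within the range of the bright members. Of these 54 (80.6%) were below 0, with a median of -0.15 and quartiles of -0.30 and -0.03, while the bright KRTAP protein genes were 12 of 12 below 0 with a median of -0.33. With a trend on gene span removed, 13 of 13 bright members were still below 0, from -0.64 to -0.01, with a median of -0.21. Of these, KRTAP2-3, KRTAP10-6 and KRTAP17-1 were each at -0.01, without a clear direction. The median of the dim members was then -0.02, with 39 of 72 below 0. What part gene length plays in the differences of the bright members was not tested.

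**Figure D4:**
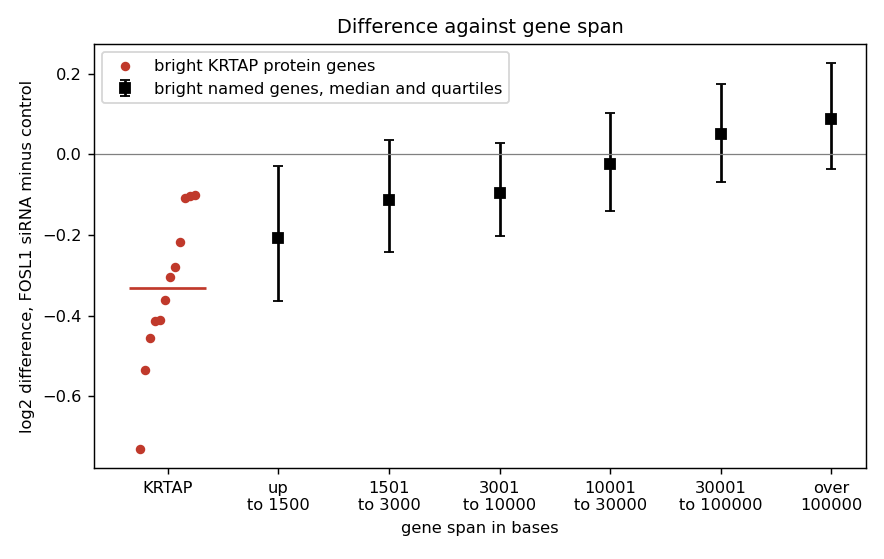
Log2 difference, FOSL1 siRNA minus control siRNA (vertical axis), for 12 bright KRTAP protein genes (points, line at the median of -0.33) and for bright named genes binned by gene span in bases (squares at the median, bars at the quartiles). The bin medians run from -0.21 for the shortest genes to 0.09 for the longest.

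Other genes of the hair shaft and of the outer epidermis were set beside the members. Of 17 hair keratins, the filament partners of these proteins, 13 had a named probe set and 0 were bright. Their median was -0.18 with 10 below 0 (76.9%), beside 58.9% of dim named genes and their median of -0.06. KRT36 was at 6.72 with FOSL1 siRNA and 7.32 with control siRNA, and KRT33B at 6.19 and 6.79 in the same order. Both were just over 1.5-fold lower, as were 2.1% of dim named genes. KRT31, the brightest hair keratin here, had a difference of -0.42. The 10 inner root sheath genes, keratins of the sheath around the hair with trichohyalin, were all dim with a median of -0.08 and 7 below 0 (70.0%), and KRT71, the brightest of them, was at -0.27.

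The cornified envelope genes, which build the protein shell of surface keratinocytes and include AP-1 targets such as IVL, showed a like pattern. Of the 37 named, 25 were below 0 (67.6%, beside 54.5% of all named genes) with a median of -0.16. The 7 bright ones were all below 0 with a median of -0.34, beside 50.1% of bright named genes. Of bright non-KRTAP protein-coding genes of at most 1643 bases 79.3% were below 0, and gene length was not matched here. CNFN was at 8.33 with FOSL1 siRNA and 8.87 with control siRNA, and LORICRIN, LCE3A and LCE3B had differences of -0.43, -0.34 and -0.34. IVL itself was dim and at 0.24. Metallothioneins, short cysteine-rich metal-binding proteins, had a median of -0.20 with 9 of 11 below 0 (81.8%, beside 54.5% of all named genes). All 4 bright ones were below 0, beside 50.1% of bright named genes and 79.3% of bright non-KRTAP protein-coding genes of at most 1643 bases. MT1E, MT1X, MT4 and MT2A had differences of -0.49, -0.22, -0.17 and -0.08. Olfactory and taste receptors had 1 named gene, OR4C45, which was dim and at -0.35, and defensins had 0. Negative medians were therefore also present in families outside the hair shaft.

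Bright regulators of the hair shaft lay closer to 0. Of 24 listed genes 19 were named and 10 of these were bright. The bright ones had a median of 0.04 with 3 below 0 (30%, beside 50.1% of bright named genes). HOXC13 was the largest exception, at 8.50 with FOSL1 siRNA and 9.03 with control siRNA, a difference of -0.53 or 1.44-fold lower. LEF1, a transcription factor of WNT signalling in the hair matrix, was at 0.28, CUX1 at 0.20 and S100A3, a calcium-binding protein of the hair cuticle, at 0.18. GATA3 and MSX1 were at -0.17 and -0.16. Gene length, which moved with the differences among bright genes, was not matched between regulators and members. AP-1 genes other than FOSL1 ranged from -0.48 for JUN to -0.04 for FOS and FOSL2.

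**Figure D5:**
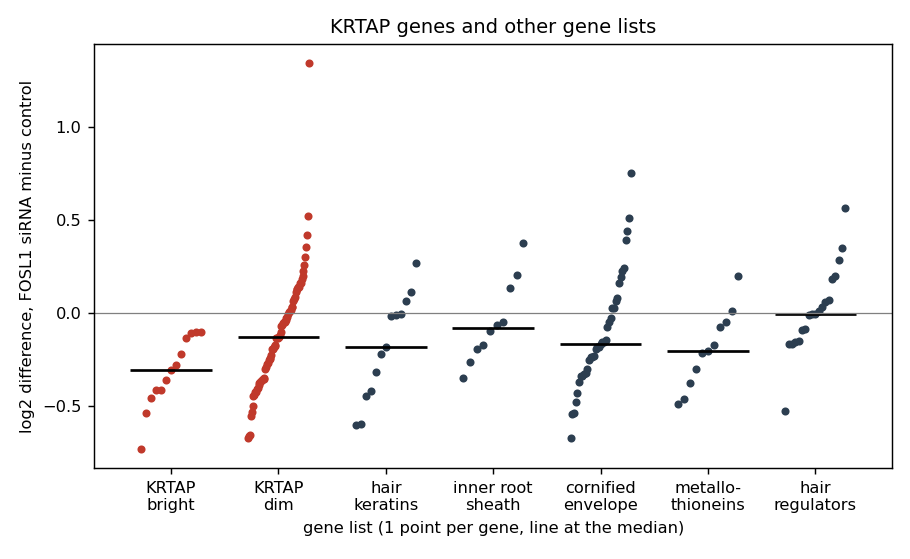
Log2 difference, FOSL1 siRNA minus control siRNA (vertical axis), for bright and dim KRTAP genes and for 5 other gene lists (horizontal axis), 1 point per gene and a line at each median. The bright KRTAP genes lie wholly below 0 with a median of -0.30, and the hair regulators are centred on 0.

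The labelled cell type was checked against its markers. Of 10 melanocyte markers 8 were named and 5 were bright: S100B, TYR, SOX10, MLANA and MITF, while PMEL, GPR143 and TYRP1 were dim. Of 14 markers of keratinocytes and hair follicle epithelium 10 were named and 0 were bright. Their log2 values ran from 5.60 to 7.16 with FOSL1 siRNA and from 5.80 to 7.32 with control siRNA, and their summed linear intensity was 983 with FOSL1 siRNA and 1016 with control siRNA. Values of KRT5 and KRT14 were 6.24 and 6.94 with FOSL1 siRNA and 6.24 and 6.90 with control siRNA. Of 11 markers of fibroblasts, endothelium and leukocytes 5 were named and 2 were bright, LUM at 0.48 and CD68 at -0.63. In bulk RNA fewer cells of a type and less RNA per cell cannot be told apart.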

How the data were processed

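Per the labels' protocols, total RNA was purified on columns, and 100 ng per sample went through whole-transcript amplification and biotin labelling before hybridisation to Affymetrix arrays (1 array per condition). The deposited values were taken as log2 intensities from their range of 2.23 to 14.81. For the log base, background correction, summary method and genome build, the sources used here give nothing. The sorted values of the 2 arrays differed by at most 0.0301, so a change in total RNA could not be seen. The number of arrays limits precision, and scanner files were not used here.

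Of 53427 probe sets 16098 had 1 gene symbol, from GEO's platform annotation, and the others were not used. Genes were matched by Entrez ID to RefSeq on GRCh38.p14 for spans and neighbours; 14883 of 14884 had a span. Python 3.11.15 with pandas 2.3.3 and statsmodels 0.14.6 (lowess fraction 0.3) was used. Trend removal was tested on simulated data with a trend on level only, not on gene span. The spread between the 2 brightest probe sets of a gene, an SD of 0.169 over 213 genes, served as the yardstick for moved values and leaves out variation between cultures. It is not a replicate error.

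The members and gene lists were chosen with earlier results of these data known. Named genes were FOSL1, bright members, members past 1.5-fold, those next to the split, the extremes of brightness, of subfamilies and of clusters, and, from each list, up to 4 bright genes of largest difference or else the brightest gene. Genes named beyond this were chosen after their values were seen. A planned grouping by amino acid composition was replaced by subfamily types from general knowledge, since protein sequences were not used here. The alternatives were other scalings, probe-set averages, trends on level and span, other splits and other fold thresholds.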

Additional observations from a re-analysis of the deposited data

How the results depend on the processing

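Removal of KRTAP5-AS1 and of the dim members past 1.5-fold, and the level of 7, were chosen after seeing the data. The bright members below 0 were 13 of 13 under centring, quantile normalization over named genes, the mean of all probe sets and removal of either trend. Of bright named genes, 47.0% to 51.1% were below 0 under these settings. With the span trend removed, KRTAP2-3, KRTAP10-6 and KRTAP17-1 were counted at -0.01, without a clear direction. KRTAP5-7 and KRTAP5-AS1, then at -0.13, also lay within the spread between probe sets. Bright members below 0 were 27 of 27 with the split at the median of all probe sets, beside 52.6% of bright named genes. With the split at the 75th percentile 2 of 2 were below 0, beside 48.9% of bright named genes. These splits admit more or fewer genes. The count at least 1.5-fold lower was 3 and 0 under those splits, 6 at a log2 difference of at least 0.32 in size, and 0 at 2-fold. The share of bright named genes past these settings is not given, so these counts have no background here. At the main split, other bright genes of at most 1643 bases had a lower quartile of -0.35. The median of the bright members stayed between -0.33 and -0.16. That of the dim members ran from -0.14 to -0.02. Of the values of single members 68 that were altered moved by less than the spread between probe sets, and 1 moved by more, KRTAP21-1 at -0.29 as a mean of probe sets. The alternatives reuse the same 2 arrays, so they do not show that a difference would repeat. No paired analysis was possible because each condition had 1 array, and for the same reason no array could be left out.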
